A study of Mus musculus with 10 samples.

Results

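The receptors of the hematopoietic growth factors were followed in MAF9 cells, a mouse leukemia model made by transducing bone marrow cells with the MLL-AF9 fusion gene. The genes were chosen by name and are Kit, Flt3, Csf1r, Csf2ra, Csf2rb, Csf2rb2, Csf3r and Epor. All 8 were found among the 24015 genes of the count table, and 7 passed the filter on low counts, Epor being the exception. RNA was sequenced after 4 days of treatment in 5 conditions with 2 libraries each, labelled as biological duplicates. The conditions were DMSO alone as the mock treatment, MM-401 (directed at WDR5), EPZ5676 (directed at DOT1L), MI-2-2 (directed at MENIN) and iBET. Each inhibitor was given at its own IC50, so that concentrations were not matched. All cells were C57BL/6 bone marrow cells carrying MLL-AF9, grown with interleukin-3 (IL-3) at 10 ng/ml in medium holding 15% serum. One receptor ligand was therefore supplied to every condition, the untransduced marrow was not among the samples, and the labels do not say whether the duplicates came from separate transductions. Where the 2 libraries of a condition do not come from separate cultures, a p-value measures technical spread.

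Growth factor receptors carry survival, proliferation and lineage signals into blood cell progenitors. Kit, Flt3 and Csf1r are class III receptor tyrosine kinases, which pair up when their ligand (stem cell factor, FLT3 ligand, and CSF-1 or IL-34) binds and then phosphorylate each other. Csf2ra, Csf2rb, Csf2rb2, Csf3r and Epor are type I cytokine receptors, which have no kinase of their own and signal through Janus kinases and STAT factors. Csf2ra is the chain that binds GM-CSF, and it signals through the common beta chain encoded by Csf2rb. Mice have in addition Csf2rb2, a beta chain that serves the IL-3 receptor only. Csf3r is the receptor for G-CSF and is known for its place on cells of the neutrophil lineage, Csf1r for that on monocytes and macrophages, Kit and Flt3 for that on progenitors, and Epor for that on erythroid cells.

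Sequence is shown first for the pair of beta chains, since their likeness limits how their reads can be told apart. The first 60 bases of the coding sequence, from the GENCODE M21 transcripts of mouse build GRCm38, are given 5′ to 3′ with the differing base in capitals.
Csf2rb: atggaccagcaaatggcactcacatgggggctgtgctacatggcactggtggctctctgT
Csf2rb2: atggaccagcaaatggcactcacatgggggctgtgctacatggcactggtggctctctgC
They differed at 1 base. Over 2631 aligned bases the reading frames were 95.2% identical. Of all 50-base windows, 18.4% of those in the Csf2rb transcript were also present in that of Csf2rb2, and 19.0% in the other direction. How reads that match both were counted is not given in the sources used here, so that the split between these 2 genes is uncertain, and both are too low if such reads were left out.

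The second set of sequences lies upstream of Csf3r, Csf2ra and Csf2rb2, which were higher with EPZ5676 and MI-2-2, and of Kit. Windows of 30 bases were taken from RefSeq promoters (250 bases before the start searched, build GRCm38.p6), which matched 6 of the 8 genes. Capitals mark GAGGAA or its reverse complement TTCCTC, the core letters bound by PU.1 and other ETS factors.
Csf3r, chr4:126024561-126024590, plus strand: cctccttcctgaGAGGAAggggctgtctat
Csf2ra, chr19:61228419-61228448, minus strand: ttcccaacctgcagatGAGGAAgaggaagc
Csf2rb2, chr15:78305871-78305900, minus strand: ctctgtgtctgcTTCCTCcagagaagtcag
Kit, chr5:75574752-75574781, plus strand: ggagagtgctagGAGGAAgaggatccaggg
The match began 86 bases upstream of the Csf3r start, 14 bases upstream for Csf2ra (with a second, adjoining match at 8 bases) and 167 bases upstream for Csf2rb2. Kit has 2 listed starts, 223 and 227 bases from its match. These letters occurred in 23.3% of 32851 promoters of the same length on either strand. Kit has them too. It was not higher with these inhibitors by the test, but could not be placed against DMSO, as given below. No match was found for Flt3. The C/EBP letters TTGCNNAA (9.56% of promoters) were found in no receptor window searched, the RUNX letters TGTGGT (14.0%) and the GATA letters AGATAA (9.99%) in that of Epor. A match is a description of letters and not of binding. Csf1r and Csf2rb had no entry. The files' own build (mm9, per the submitters' processing notes) was not used for positions.

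Library totals lay between 20394762 and 29473127 reads. The libraries expressed genes of myeloid progenitors and blasts, 8 of 8 listed markers having reads, and among erythroid markers the globin genes Hba-a1, Hba-a2, Hbb-b1 and Hbb-b2 had none. DMSO replicate 2 stood apart. It held 3630 reads of genes on the Y chromosome (Uty, Kdm5d, Eif2s3y and Ddx3y) against 0 to 2 in each other library, its Xist level was 4.76 CPM (counts per 1000000 reads) against 928 or more, and 16.7% of genes with at least 1 CPM were more than 2-fold apart between the DMSO libraries, against 1.47% to 4.31% within each inhibitor. Its summed markers of stromal cells (244 CPM, against 0.707 to 21.3 elsewhere), of T and natural killer cells (65.8 against 0.0765 to 6.31) and of mast cells and basophils (131 against 20.5 to 52.6) were the highest, and each sum was mostly 1 gene. These were Col6a3 with 5081 reads (6 to 129 elsewhere), Nkg7 with 1371 (1 to 101 elsewhere) and Hdc with 2467 (108 to 768 elsewhere). The other markers did not stand out with them, since Col1a2, Col3a1, Cd3e, Fcer1a, Prss34, Tpsb2, Tpsab1 and Cma1 had 0 reads in all libraries and Col1a1 had 6 reads in DMSO replicate 2 against up to 402 with EPZ5676. Y-linked reads with hardly any Xist are the pattern of male cells, and the other libraries had that of female cells. In comparisons that use DMSO replicate 2, the sex or donor of the cells cannot be told apart from the treatment. Named values and most counts or medians against DMSO are therefore given with the effect of leaving out either DMSO library. A condition with 1 library left out holds 1 library and has no spread of its own. The p-values of such a fit rest on the spread within the other conditions. Without a DMSO library they therefore do not measure the spread between DMSO cultures. Calls said to hold, pass or be lost in such a fit describe that fit only. Direct comparisons between inhibitors are given beside them. Levels are CPM after TMM normalization unless said otherwise, and differences are log2 fold changes from edgeR's quasi-likelihood test fitted once to the 10 libraries and 12971 genes and adjusted by the Benjamini-Hochberg method, with calls made below 0.05. The 4 comparisons with DMSO share its libraries. An exact permutation test of 2 libraries against 2 cannot go below p = 0.333 and was not used.

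EPZ5676 and MI-2-2 raised 5 of the 7 tested receptors, Csf3r, Csf2rb2, Csf1r, Csf2rb and Csf2ra, and lowered none by the test. iBET raised both beta chains, Csf2rb and Csf2rb2, and no receptor passed the threshold with MM-401. Among all tested genes, 38.1% were called with EPZ5676 (18.7% as higher), 41.4% with MI-2-2 (20.2% as higher), 13.9% with iBET (6.38% as higher) and 0% with MM-401. By edgeR 1450 genes, 1 of them a receptor, had an unadjusted p under 0.05 with MM-401, and DESeq2 called 297 genes but no receptor. The median log2 fold change of the 7 receptors was 1.06, 1.12, 0.32 and 0.25 for EPZ5676, MI-2-2, iBET and MM-401, beside −0.06, −0.05, −0.04 and −0.01 for all genes. Without DMSO replicate 2 the median of the receptors was 1.47, 0.96, 0.72 and 0.40 in the same order. Without DMSO replicate 1 it was 1.29, 1.35, 0.45 and 0.38. Those of all genes lay between −0.005 and 0.024. The receptors behind these medians did not all rise. With MI-2-2, Kit was at 0.88 without DMSO replicate 2 and at −1.12 without replicate 1. A size rule was also applied, with the study's limit of 2-fold, to mean CPM scaled by library totals with 0.1 added, in genes that averaged 1 CPM or more in either group, a minimum set here. By it 3 of 6 receptors were past it with EPZ5676 (26.8% of the genes considered), 3 of 6 with MI-2-2 (27.5%), 3 of 7 with iBET (14.9%) and 0 of 6 with MM-401 (6.44%). On TMM-scaled levels, an alternative chosen after seeing the data, Csf2rb was past it as well with EPZ5676 and MI-2-2, and the counts were 4, 4, 3 and 0 (25.3%, 26.6%, 14.8% and 6.28% of genes). On library totals they were 4, 3, 2 and 0 without DMSO replicate 2 (24.9%, 24.8%, 16.8% and 8.68% of genes) and 5, 6, 4 and 3 without DMSO replicate 1 (34.2%, 36.1%, 18.4% and 12.1%).

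**Figure D1:**
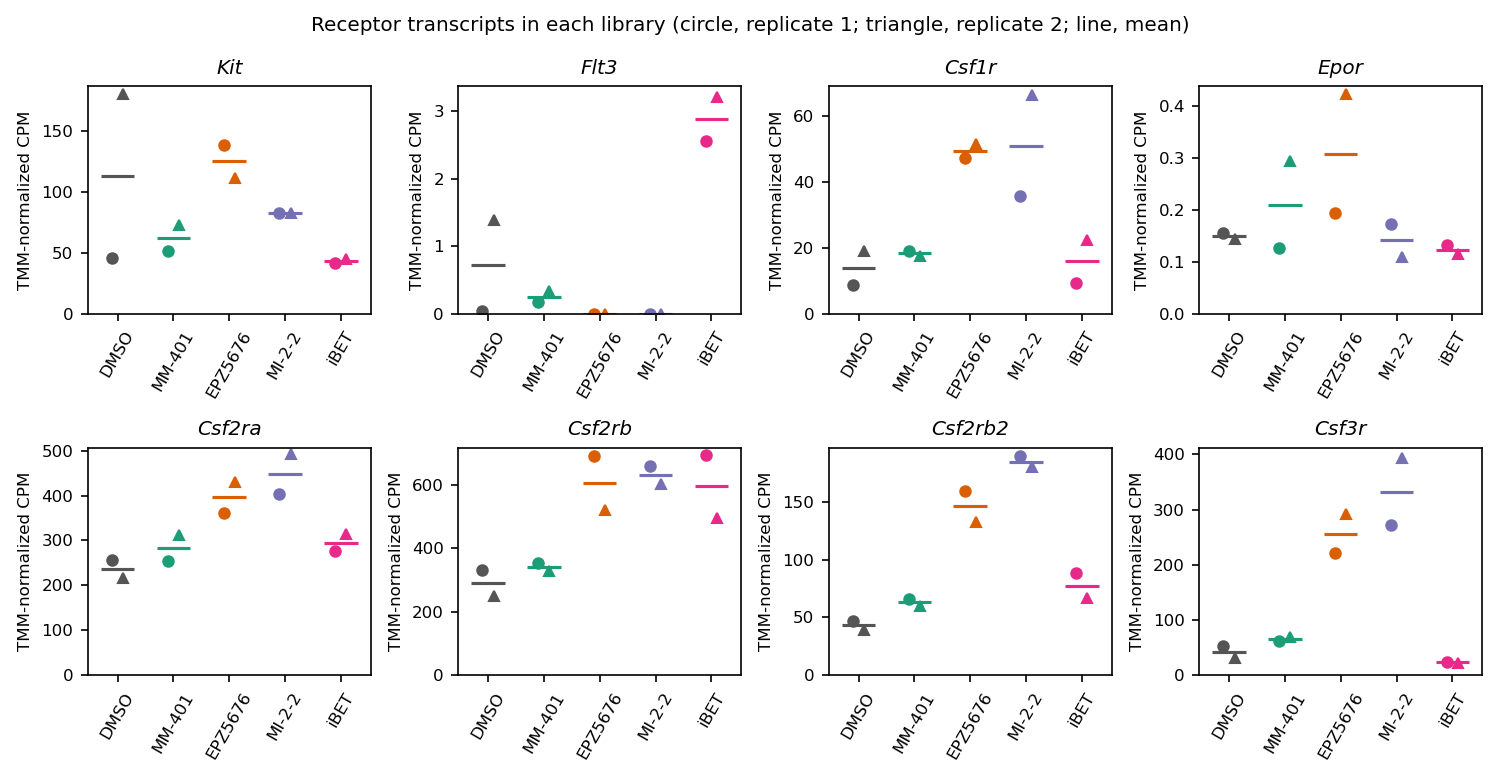
TMM-normalized CPM (y axis, linear, from 0, with its own scale for each gene) of the 8 receptors in each library, by condition (x axis); circles are replicate 1, triangles replicate 2 and lines the mean of both. Csf3r, Csf2rb2, Csf1r and Csf2ra in all 4 EPZ5676 and MI-2-2 libraries lie above the libraries of every other condition. Kit is split between the DMSO libraries (45.9 and 180), and Epor stays below 0.5.

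Per transcript length, the GM-CSF receptor dominated. In DMSO, Csf2ra had 151 and 120 RPKM (CPM, scaled by library totals, per kilobase of the longest protein-coding transcript), and Csf2rb had 73.3 and 51.9. Next came Kit with 9.48 and 35.1 RPKM, Csf3r with 16.5 and 9.30, and Csf2rb2 with 10.8 and 8.40, 3 genes whose DMSO values overlapped and whose order is not resolved. Csf1r had 2.01 and 4.13 RPKM. Flt3, at 0.0115 and 0.389, and Epor, at 0.0958 and 0.0835, overlapped at the bottom. Il3ra, the alpha chain of the IL-3 receptor, is no member but shares the beta chains, and it stood at 34.7 and 11.6 RPKM. Csf2ra made up 41.5% to 58.9% of the summed RPKM of the 8 receptors in every library and was the highest as counted. Its lead over Csf2rb was smallest in iBET replicate 1 (45.6% against 43.4%), where the order would not hold if reads shared by the beta chains had been left out in proportion to their shared windows. The share of Csf3r was 4.05% to 6.97% in the DMSO and MM-401 libraries, 13.5% to 19.8% with EPZ5676 and MI-2-2, and 2.10% and 2.13% with iBET.

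Csf3r, the G-CSF receptor, spanned 17.3-fold between its lowest and highest library, the widest range among the members with reads in all libraries. Its level was 53.2 and 31.6 CPM in DMSO, 61.5 and 69.4 with MM-401, 221 and 292 with EPZ5676, 271 and 394 with MI-2-2, and 23.9 and 22.7 with iBET. Both libraries of EPZ5676 and of MI-2-2 were above, and both of iBET below, every library of the other conditions. Against DMSO it was 6.04-fold higher with EPZ5676 (log2 fold change 2.60 ± 0.29 SE, adjusted p = 0.000824) and 7.83-fold higher with MI-2-2 (2.97 ± 0.29, adjusted p = 0.00061). These calls held without either DMSO library. Without DMSO replicate 1 the change was 3.02 with EPZ5676 and 3.40 with MI-2-2, and without DMSO replicate 2 it was 2.29 and 2.68. With iBET the difference of −0.87 ± 0.28 did not pass (adjusted p = 0.0737). It was −1.19 and passed without DMSO replicate 2 (adjusted p = 0.0142), and was −0.44 without replicate 1. DESeq2 called it with both (adjusted p = 0.0167). MM-401 gave 0.62 ± 0.27 (adjusted p = 0.448), which passed only without DMSO replicate 1, at 1.05 (adjusted p = 0.0429).

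Neutrophil markers moved with Csf3r. All 8 markers found of the 9 listed (Ltf, Ngp, Camp, Lcn2, Mmp8, Mmp9, Cd177 and Retnlg, genes of neutrophil granules and mature neutrophils) rose with EPZ5676 and with MI-2-2, also without either DMSO library. With MM-401, 6 of the 8 rose without DMSO replicate 1 and 0 without replicate 2. Their summed level was 259 to 867 CPM in DMSO, 1243 to 1476 with MM-401, 20294 to 26316 with EPZ5676 and MI-2-2, and 114 to 242 with iBET. Among all genes 18.7% were called as higher with EPZ5676 and 20.2% with MI-2-2. Of 6 tested megakaryocyte markers, 4 rose with each as well (2.88 to 5.37 CPM summed in DMSO, 30.1 to 74.0 with both inhibitors). That sum was mostly 1 gene, Vwf, with 503 and 838 reads with EPZ5676 and 463 and 1879 with MI-2-2. It had 60 and 39 reads in DMSO. No other marker of that list exceeded the 78 reads of Pf4 in EPZ5676 replicate 1. The part of the neutrophil markers in the Csf3r result was not tested. In these bulk samples fewer cells of a type and less RNA per cell cannot be told apart. The 8 blast markers summed to 10397 to 13551 CPM in DMSO, 11553 to 12102 with MM-401, 2519 to 3755 with EPZ5676 and MI-2-2, and 6725 to 7472 with iBET. Of the 8, 6 fell with each of EPZ5676 and MI-2-2, where 19.4% and 21.2% of all genes were called as lower. With iBET 2 of the 8 fell and 0 rose, where 7.54% of all genes were called as lower. The median log2 fold change of the 8 with iBET was −0.05. Mpo had 330 and 422 reads with iBET and 9913 and 100486 in DMSO. Elane had 16898 and 9828 against 107732 and 83614. Ctsg went the other way, with 81323 and 90037 against 67824 and 25570. The blast marker Hoxa9 had 9245 and 9940 reads with MI-2-2, between the DMSO libraries with 11436 and 7919.

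**Figure D2:**
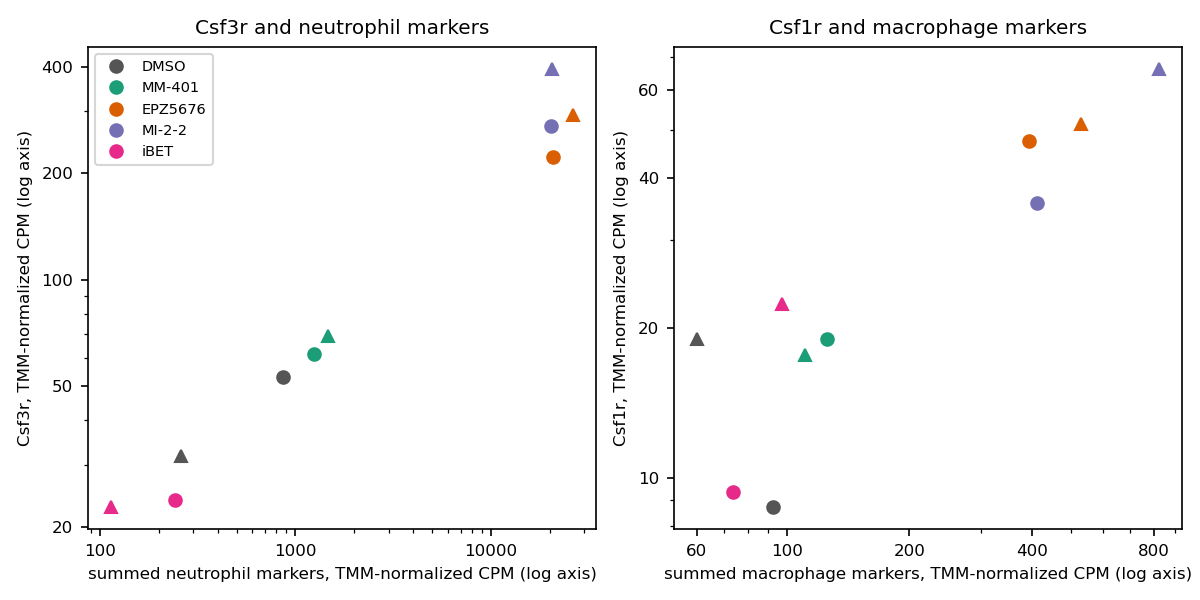
Left, Csf3r against the summed level of 8 neutrophil markers, and right, Csf1r against that of 10 macrophage markers, both in TMM-normalized CPM on log axes, 1 point per library (circle, replicate 1; triangle, replicate 2) and colored by condition. The 4 EPZ5676 and MI-2-2 libraries lie at the upper right in both panels.

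The beta chains rose with 3 of the inhibitors. Csf2rb, the common chain, stood at 332 and 249 CPM in DMSO, 355 and 328 with MM-401, 691 and 521 with EPZ5676, 658 and 603 with MI-2-2, and 695 and 495 with iBET. The libraries of the last 3 inhibitors did not overlap those of DMSO. Its log2 fold change was 1.06 ± 0.22 with EPZ5676 (adjusted p = 0.00847), 1.12 ± 0.22 with MI-2-2 (adjusted p = 0.00638) and 1.04 ± 0.22 with iBET (adjusted p = 0.0234). The changes were 0.90, 0.96 and 0.84 without DMSO replicate 2 and 1.29, 1.35 and 1.26 without replicate 1. The iBET call was lost without DMSO replicate 2 (adjusted p = 0.0515), without either iBET library (0.148 and 0.0571) and without either MM-401 library (0.0507 and 0.0509), the last pair being in the fit but not in the comparison.

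Csf2rb2, the beta chain of the IL-3 receptor in mice, was at 47.1 and 38.9 CPM in DMSO, 65.6 and 60.2 with MM-401, 159 and 133 with EPZ5676, 189 and 180 with MI-2-2, and 88.0 and 66.8 with iBET. All inhibitor libraries were above both DMSO libraries. The rise was 3.39-fold with EPZ5676 (log2 fold change 1.76 ± 0.17, adjusted p = 0.00063), 4.29-fold with MI-2-2 (2.10 ± 0.17, adjusted p = 0.000407) and 1.80-fold with iBET (0.85 ± 0.17, adjusted p = 0.0187). The changes were 1.66, 2.01 and 0.72 without DMSO replicate 2 and 1.91, 2.25 and 1.00 without replicate 1, all past the threshold. The iBET call was lost without either iBET library (adjusted p = 0.12 and 0.0511). For MM-401 the difference was 0.55 ± 0.17, with an unadjusted p of 0.012 and an adjusted p of 0.333.

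The 2 beta chains did not change in proportion. Csf2rb2 took 12.4% and 13.5% of the reads of the pair in DMSO, 15.6% and 15.5% with MM-401, 18.7% and 20.3% with EPZ5676, 22.3% and 23.0% with MI-2-2, and 11.2% and 11.9% with iBET. The 5 conditions did not overlap in this share, which rests on the uncertain split of reads between the genes. Summed, the pair was higher with EPZ5676 (log2 fold change 1.17 ± 0.22, adjusted p = 0.00525), MI-2-2 (1.29 ± 0.22, adjusted p = 0.00334) and iBET (1.01 ± 0.22, adjusted p = 0.023), and 0.28 ± 0.22 with MM-401 (adjusted p = 0.684). The sums held with EPZ5676 and MI-2-2 without DMSO replicate 2 (1.02 and 1.14) and without replicate 1 (1.39 and 1.51), while the iBET sum was lost without replicate 2 (0.83, adjusted p = 0.0501).

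**Figure D3:**
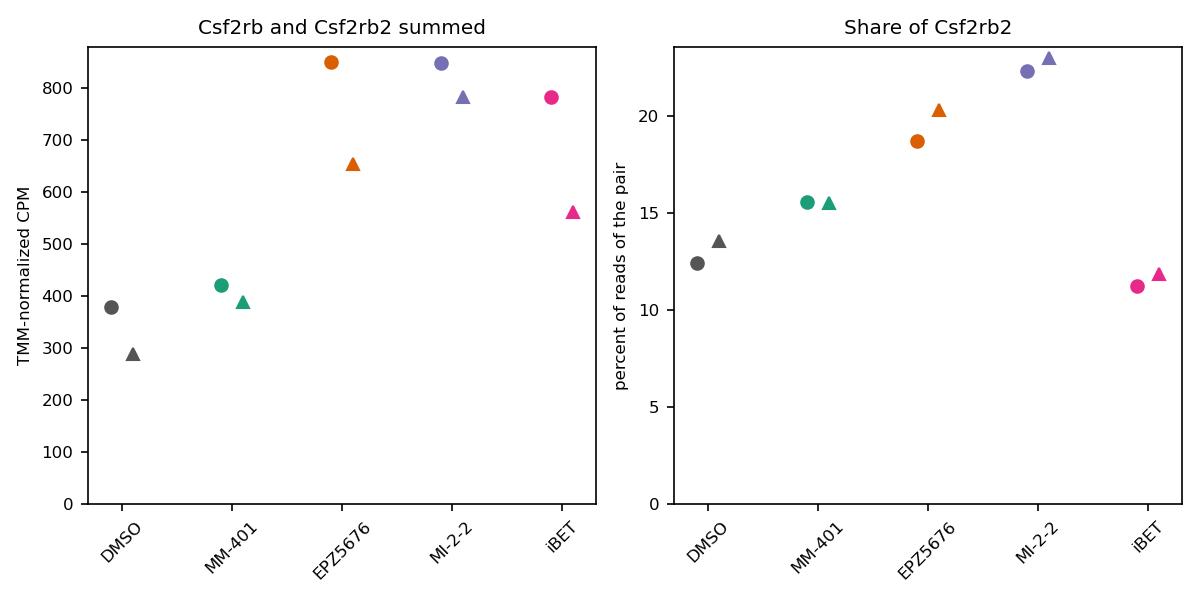
Left, summed TMM-normalized CPM of Csf2rb and Csf2rb2, and right, the percent of their reads assigned to Csf2rb2, both on axes from 0, in each library by condition (circle, replicate 1; triangle, replicate 2). The sum is higher with EPZ5676, MI-2-2 and iBET, while the Csf2rb2 share is above DMSO with EPZ5676 (18.7% and 20.3%) and MI-2-2 (22.3% and 23.0%) but not with iBET (11.2% and 11.9%).

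Csf2ra, the GM-CSF binding chain, varied least, 2.27-fold over all libraries. It was at 257 and 217 CPM in DMSO, 254 and 311 with MM-401, 361 and 431 with EPZ5676, 404 and 493 with MI-2-2, and 276 and 315 with iBET. The libraries of EPZ5676 and MI-2-2 were above all others. EPZ5676 raised Csf2ra 1.67-fold (log2 fold change 0.74 ± 0.18, adjusted p = 0.0133) and MI-2-2 1.89-fold (0.92 ± 0.18, adjusted p = 0.00531). Both held without DMSO replicate 2 (0.65 and 0.84) and without replicate 1 (0.87 and 1.05). The EPZ5676 call was lost without EPZ5676 replicate 2 (adjusted p = 0.0801). The other alpha chain, Il3ra, stood at 74.2 and 26.3 CPM in DMSO and between 43.7 and 64.4 in all inhibitor libraries, which lay between the DMSO libraries. Its log2 fold change was 0.11 ± 0.41 with EPZ5676 and 0.15 ± 0.41 with MI-2-2, and no comparison of it passed. Like Kit below, it could not be placed against DMSO. Without DMSO replicate 1 it was higher with EPZ5676 (1.05, adjusted p = 0.00997), MI-2-2 (1.09, adjusted p = 0.00771) and iBET (1.01, adjusted p = 0.0213), and without replicate 2 the sign turned (−0.43, −0.38 and −0.49, none past the threshold). Il5ra, the alpha chain of the IL-5 receptor, had 0 or 1 read in each library.

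Csf1r, the CSF-1 receptor, was at 8.72 and 19.0 CPM in DMSO, 19.0 and 17.6 with MM-401, 47.3 and 51.4 with EPZ5676, 35.6 and 66.2 with MI-2-2, and 9.37 and 22.3 with iBET. The libraries of EPZ5676 and MI-2-2 were above all others. The rise was 3.57-fold with EPZ5676 (log2 fold change 1.84 ± 0.50, adjusted p = 0.0225) and 3.68-fold with MI-2-2 (1.88 ± 0.50, adjusted p = 0.0188). These calls rested on single libraries. Without DMSO replicate 1 the changes were 1.38 (adjusted p = 0.0599) and 1.43 (adjusted p = 0.0513), and without DMSO replicate 2 they were 2.52 and 2.58 and passed. The EPZ5676 call was also lost without either EPZ5676 library (adjusted p = 0.0643 and 0.0851), and the MI-2-2 call without MI-2-2 replicate 2 (1.37, adjusted p = 0.117). Of 10 macrophage markers, 9 rose with each of EPZ5676 and MI-2-2, among them Emr1, which encodes F4/80, (9 also without DMSO replicate 2, and 10 without replicate 1). Their summed level was 59.9 to 92.1 CPM in DMSO, 110 to 126 with MM-401, 395 to 823 with EPZ5676 and MI-2-2, and 73.7 to 96.9 with iBET. Cd163, C1qa, C1qb and C1qc had no read in DMSO replicate 2. Among all genes 18.7% were called as higher with EPZ5676 and 20.2% with MI-2-2. The part of the macrophage markers in the Csf1r result was not tested.

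**Figure D4:**
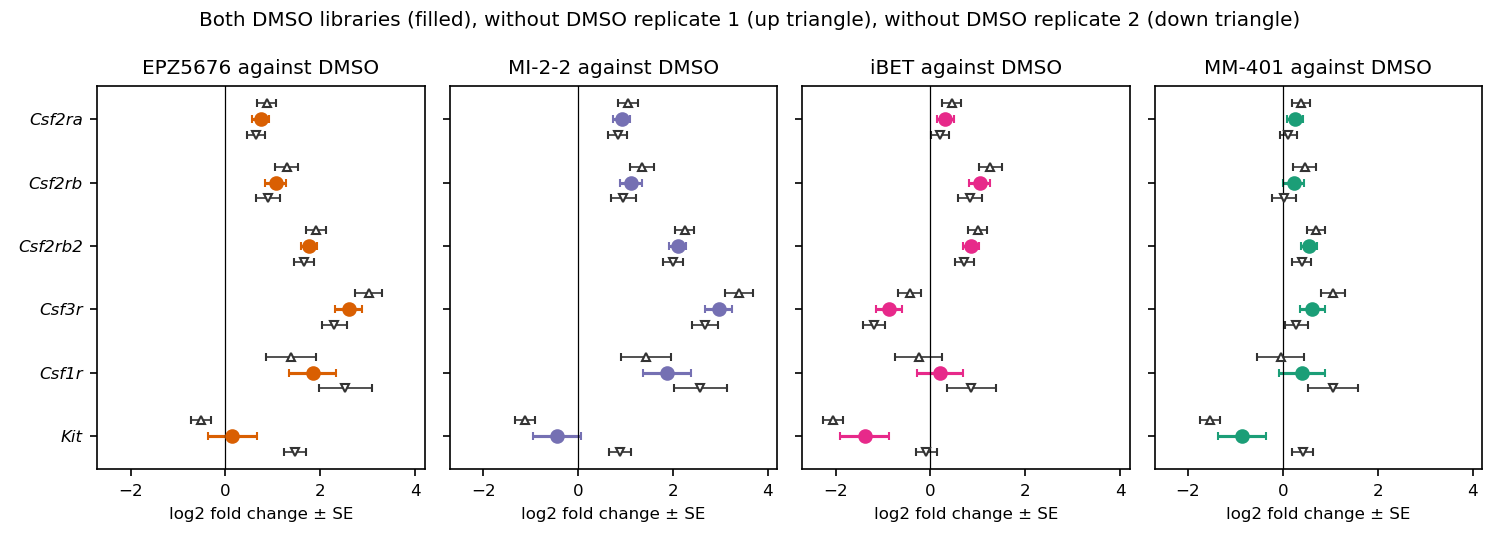
Log2 fold change against DMSO (x axis, error bars are SE) of 6 receptors (y axis) for each inhibitor; filled circles use both DMSO libraries, and open triangles leave out DMSO replicate 1 (pointing up) or replicate 2 (pointing down). Csf3r, Csf2rb2, Csf2rb, Csf2ra and Csf1r keep to the right of 0 with EPZ5676 and MI-2-2 in all 3 estimates. Kit changes side with EPZ5676, MI-2-2 and MM-401, and Csf1r with iBET and MM-401.

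Kit, the stem cell factor receptor, could not be placed against DMSO. Its level was 45.9 and 180 CPM in DMSO, 51.3 and 72.8 with MM-401, 139 and 111 with EPZ5676, 82.6 and 82.9 with MI-2-2, and 41.8 and 44.8 with iBET. The 2 DMSO libraries, with 1179 and 3757 reads, enclosed every inhibitor library but those of iBET. With both of them the log2 fold change was 0.15 ± 0.51 for EPZ5676, −0.45 ± 0.51 for MI-2-2, −0.86 ± 0.51 for MM-401 and −1.38 ± 0.52 for iBET, and none passed (adjusted p = 0.837, 0.506, 0.586 and 0.111). Without DMSO replicate 2, Kit was higher with EPZ5676 (1.47) and MI-2-2 (0.88). Without DMSO replicate 1 it was lower with MI-2-2 (−1.12), MM-401 (−1.53) and iBET (−2.05). DESeq2 called iBET with both DMSO libraries (adjusted p = 0.0255). The MI-2-2 difference thus lay in opposite directions with each DMSO library.

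Flt3, the FLT3 ligand receptor, was near the limit of detection. It had 1 and 29 reads in DMSO, 4 and 8 with MM-401, 58 and 84 with iBET, and none in the 4 libraries of EPZ5676 and MI-2-2. Against 3 reads over the group, which a count of 0 allows, Flt3 was at least 10.1-fold lower with EPZ5676 and at least 12.1-fold lower with MI-2-2 than in DMSO, bounds that cover counting error only, and 29 of the 30 DMSO reads came from DMSO replicate 2. Neither difference passed (adjusted p = 0.0652 and 0.0535), and the call depended on the method. DESeq2 (adjusted p = 0.00941 and 0.00601) and edgeR without the low-count filter (0.0487 and 0.0377) called both inhibitors, and edgeR with a replicate block (0.0422) or total-count scaling (0.0448) called MI-2-2. Both passed without DMSO replicate 1 (adjusted p = 0.002 and 0.00153) and not without replicate 2 (0.263 and 0.233). The iBET libraries, at 2.56 and 3.21 CPM, were above both DMSO libraries (0.0389 and 1.39), at 2.04 ± 1.13 (adjusted p = 0.271), and this difference passed only without DMSO replicate 2 (adjusted p = 0.0101). Epor, the erythropoietin receptor, had 3 to 9 reads in each library and was not tested.

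Between inhibitors, no DMSO library enters the contrast, but the DMSO libraries are in the fit and add to its estimate of spread. EPZ5676 and MI-2-2 differed in 0 of 7 receptors, where 0.0154% of all genes were called (937 genes and 0 receptors at an unadjusted p under 0.05, and 155 genes but no receptor by DESeq2). Csf3r was 0.37 ± 0.27 lower on the log2 scale with EPZ5676 than with MI-2-2, Csf2rb2 0.34 ± 0.17 lower, and Kit 0.59 ± 0.51 higher, none past the threshold. Against MM-401, EPZ5676 raised 3 receptors, where 33.3% of all genes were called and 16.7% as higher, and MI-2-2 raised 5, where 35.7% were called and 18.0% as higher. By the 2-fold rule MI-2-2 was past it in 3 (23.9% of the genes considered). Csf3r was 3.92-fold higher with EPZ5676 (adjusted p = 0.00248) and 5.08-fold with MI-2-2 (adjusted p = 0.00163), and Csf2rb2 2.32-fold (adjusted p = 0.0024) and 2.94-fold (adjusted p = 0.00131). Csf2rb was also higher with both (log2 fold change 0.83 ± 0.22, adjusted p = 0.0248, and 0.89 ± 0.22, adjusted p = 0.0182), and with MI-2-2 so were Csf2ra (0.67 ± 0.18, adjusted p = 0.021) and Csf1r (1.47 ± 0.49, adjusted p = 0.0486). Those 4 calls, unlike the ones for Csf3r and Csf2rb2, were lost without either MM-401 library (adjusted p from 0.0557 to 0.198). Each was also lost without at least 1 library of the inhibitor compared (adjusted p from 0.0531 to 0.254), Csf1r also without either EPZ5676 library, and total-count scaling lost Csf2rb with EPZ5676 (0.0595) and Csf1r with MI-2-2 (0.0543).

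Relative to iBET, EPZ5676 changed 4 receptors (37.6% of all genes called) and MI-2-2 5 (38.8%). Csf3r was 11.0-fold higher with EPZ5676 (log2 fold change 3.46 ± 0.30, adjusted p = 0.00025) and 14.3-fold with MI-2-2 (3.84 ± 0.30, adjusted p = 0.000189). Flt3 was at least 44.8-fold and at least 53.3-fold lower (adjusted p = 0.0214 and 0.0192), a call lost when any 1 of the libraries compared was left out. Csf2rb2 was 1.89-fold and 2.39-fold higher (adjusted p = 0.00471 and 0.00146) and Csf1r 3.11-fold and 3.20-fold (adjusted p = 0.0333 and 0.0298), the Csf1r calls being lost without iBET replicate 1 (adjusted p = 0.157 and 0.143) and without either MM-401 library (from 0.0522 to 0.0567). The Csf1r call was lost as well without either EPZ5676 library for EPZ5676 (0.0904 and 0.108) and without MI-2-2 replicate 2 for MI-2-2 (0.166). Csf2ra passed with MI-2-2 (0.60 ± 0.17, adjusted p = 0.028) but not without either iBET library (0.153 and 0.0856) or MI-2-2 replicate 2 (0.155). Csf2rb did not pass, at 0.03 ± 0.22 and 0.08 ± 0.22. iBET differed from MM-401 in 1 receptor (11.4% of all genes called; by the 2-fold rule in 2, with 12.7% of genes past it), Csf3r, at −1.49 ± 0.28 (adjusted p = 0.0154), a call lost without any 1 of the 4 libraries compared (adjusted p between 0.0767 and 0.12). Kit was 1.53 ± 0.52 higher with EPZ5676 than with iBET (adjusted p = 0.0502), and 1.56 with an adjusted p of 0.000448 when the DMSO libraries were left out of the fit. DESeq2 (0.00516) and a replicate block (0.0313) called it too.

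**Figure D5:**
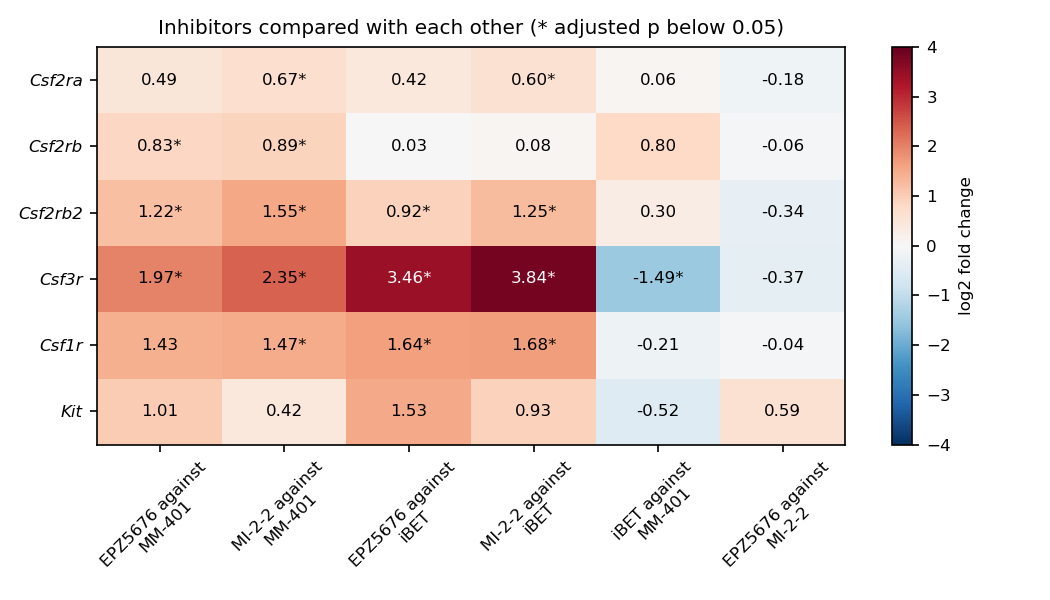
Log2 fold change (color and printed value) of 6 receptors (rows) in the 6 comparisons between inhibitors (columns); an asterisk marks an adjusted p below 0.05. Csf3r carries the largest values, 3.46 and 3.84 for EPZ5676 and MI-2-2 against iBET, and the column of EPZ5676 against MI-2-2 holds no asterisk.

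The ligands of these receptors were mostly absent from the cells' own RNA. Kitl (stem cell factor), Il3, Epo, Thpo and Il34 had 0 reads in all libraries, Csf2 (GM-CSF) 0 to 4, Csf3 (G-CSF) 0 to 6 and Il5 0 or 1. Csf1, the ligand of Csf1r, was at 9.38 and 2.06 CPM in DMSO, 27.7 and 34.7 with EPZ5676, and 23.8 and 40.8 with MI-2-2. It rose with both inhibitors (log2 fold change 2.43 ± 0.63, adjusted p = 0.0185, and 2.49 ± 0.63, adjusted p = 0.0156), and the rise was 3.92 and 3.97 without DMSO replicate 1 and 1.75 and 1.82 without replicate 2, past the threshold each time. Flt3l, the ligand of Flt3, rose with MI-2-2 (1.37 ± 0.44, adjusted p = 0.0376; 10.6 and 3.64 CPM in DMSO, 21.5 and 15.4 with MI-2-2), and by 2.34 and 0.84 without DMSO replicate 1 and replicate 2.

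Genes that carry the receptor signal were followed in lists. The calls of the list genes named here held without either DMSO library, except for Id1 and Il6st, and where leaving one out moved a fold by more than 1.5 times its value is given. Of 29 kinases and signal carriers, 15 rose and 1 fell with EPZ5676, 18 rose and 1 fell with MI-2-2, 6 rose with iBET and 0 passed with MM-401, so that 51.7%, 62.1% and 20.7% rose where 18.7%, 20.2% and 6.38% of all genes did, with median log2 fold changes of 0.57, 0.55, 0.26 and 0.12. Pik3r5, a regulatory subunit of PI3-kinase gamma, rose 8.24-fold with EPZ5676 (10.8 and 10.5 CPM in DMSO, 74.2 and 101 with EPZ5676, adjusted p = 0.000685) and 8.86-fold with MI-2-2. Jak2, the kinase bound by the beta chain and by Epor, rose 2.62-fold and 2.89-fold, and Jak1 rose 2.17-fold, 2.16-fold and 1.64-fold with EPZ5676, MI-2-2 and iBET. With iBET, Lyn (1.76-fold) and Pik3cd (1.52-fold) also rose. For EPZ5676, MI-2-2 and iBET the list medians were 0.65, 0.60 and 0.27 without DMSO replicate 2, and 0.52, 0.54 and 0.22 without replicate 1.

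Over all 72 tested genes of the pathway lists, MM-401 had 0 calls by edgeR and 0 by DESeq2, with 7 genes at an unadjusted p under 0.05. Without DMSO replicate 1 it had 8 calls among 73 genes, where 10.2% of all genes were called, among them Dok2 (log2 fold change 0.89, adjusted p = 0.00696) and Csf1 (2.11, adjusted p = 0.0373). It had 0 calls without DMSO replicate 2.

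Of 16 tested feedback inhibitors and phosphatases, 6 rose and 1 fell with EPZ5676, 7 and 1 with MI-2-2, 6 and 1 with iBET, and 0 passed with MM-401. Of the 16, then, 7, 8 and 7 were called in either direction, where 38.1%, 41.4% and 13.9% of all genes were. For EPZ5676 and MI-2-2 that share was near the one of all genes. The share that rose was 37.5%, 43.8% and 37.5%, where 18.7%, 20.2% and 6.38% of all genes rose. The median log2 fold changes of the list were 0.67, 0.71 and 0.64 with EPZ5676, MI-2-2 and iBET. They were 0.51, 0.67 and 0.49 without DMSO replicate 2, and 0.70, 0.70 and 0.89 without replicate 1. The adaptor Dok1 rose 1.81-fold, 1.72-fold and 1.74-fold with the 3 inhibitors, Cbl, a ubiquitin ligase that removes activated receptors, rose 1.74-fold and 1.69-fold with EPZ5676 and MI-2-2, and Sh2b3, the brake on Jak2 also called Lnk, rose 1.66-fold with EPZ5676 and 1.94-fold with iBET. Dok2 rose with EPZ5676 (1.81-fold) and MI-2-2 (2.39-fold) and was 2.37-fold lower with iBET (48.2 and 32.6 CPM in DMSO, 16.2 and 17.9 with iBET, adjusted p = 0.00739). Socs2, an inhibitor induced by STAT5, rose 2.85-fold with iBET, and Ptpn6, the phosphatase SHP-1, rose 1.67-fold with MI-2-2.

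Among 10 genes known to be induced by receptor signals, 3 rose and 1 fell with EPZ5676, 5 rose and 1 fell with MI-2-2, 1 rose with iBET and 0 passed with MM-401. These 4, 6 and 1 calls in either direction among 10 genes stood beside 38.1%, 41.4% and 13.9% of all genes, near which the EPZ5676 and iBET shares lay. The share that rose was 30%, 50% and 10%, where 18.7%, 20.2% and 6.38% of all genes rose. The median log2 fold changes of the list were 0.83, 0.95 and 0.29 with EPZ5676, MI-2-2 and iBET. They were 0.66, 0.86 and −0.08 without DMSO replicate 2, and 0.97, 1.04 and 0.30 without replicate 1. The survival genes Mcl1 (2.14-fold and 2.19-fold) and Bcl2l1 (1.70-fold and 2.08-fold) rose with EPZ5676 and MI-2-2. Fos, an early response gene, rose 8.49-fold and 7.12-fold, from 3.35 and 11.6 CPM in DMSO. Its rise was 19.2-fold and 16.2-fold without DMSO replicate 2 and 5.44-fold and 4.57-fold without replicate 1. Myc fell, by 1.10 and 1.44 on the log2 scale. Id1 rose 2.08-fold with iBET, a call lost without DMSO replicate 2 (adjusted p = 0.0714). Of 3 other cytokine receptors tested, Il6st, which encodes gp130, rose 2.56-fold with iBET (adjusted p = 0.0444), and this call was lost without DMSO replicate 1 (adjusted p = 0.0849).

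Of 12 tested transcription factors known to act on receptor genes, 3 rose and 4 fell with each of EPZ5676 and MI-2-2, 1 rose and 1 fell with iBET, and 0 passed with MM-401. The share called was 58.3%, 58.3% and 16.7%, where 38.1%, 41.4% and 13.9% of all genes were called. The median log2 fold changes of the list were −0.39, −0.21 and −0.09 with EPZ5676, MI-2-2 and iBET. They were −0.20, −0.17 and 0.12 without DMSO replicate 2. For the 13 tested without replicate 1 they were −0.52, −0.42 and −0.19. Meis1, the HOX partner of MLL-rearranged leukemia, was 50.8-fold lower with EPZ5676 and 69.6-fold lower with MI-2-2 (36.4 and 89.9 CPM in DMSO, 0.65 to 1.79 with both), and 28.9-fold and 39.2-fold lower without DMSO replicate 2. Myb was 3.01-fold and 3.52-fold lower, and Gata2, a factor of stem cells and mast cells, 16.6-fold and 17.4-fold lower, or 9.73-fold and 10.2-fold without DMSO replicate 1. Gata2 was near the limit of detection with both inhibitors (0.146 to 0.188 CPM) and low in DMSO (4.01 and 1.68 CPM). Cebpe, a factor of late granulocyte maturation, rose 3.61-fold and 2.87-fold with EPZ5676 and MI-2-2 and was 4.23-fold lower with iBET, where its level was 107 and 108 CPM in DMSO and 31.3 and 19.5 with iBET. Irf8, a factor of the monocyte line, rose 4.54-fold with iBET, 8.84-fold without DMSO replicate 2 and 3.06-fold without replicate 1.

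The genes whose profile over the 10 libraries lay nearest to that of each receptor were named by the smallest root mean square difference of mean-centred log2 CPM, among 9940 genes that averaged 5 CPM or more. For Csf3r they were Cd300lf (difference 0.25, where Csf3r itself varied by 1.499), Rasgef1a (0.27) and Itgam (0.28), the last encoding the integrin CD11b of myeloid cells. Nearest to Csf1r was Emr1 (0.33 of 0.95), followed by Myo1f and Fyb. Nearest to Csf2rb2 were Notch1 (0.15 of 0.79), Fam214b and Dmxl2. For Csf2rb they were Exoc3 (0.14 of 0.50), Ctnna1 and Map3k14, and for Csf2ra 2810474O19Rik (0.07 of 0.36), Zfp935 and Sbno2. Kit lay nearest to Asap1 (0.30 of 0.69), Cchcr1 and Hsd17b7. Flt3, nearly without reads, had no close neighbour, the nearest being Mylk (0.97 of 2.05), Apba1 and Gspt2. The libraries share depth and condition, and these differences are descriptions without a test.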

How the data were processed

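Read counts per gene, deposited by the authors without normalization for 24015 genes, were used as whole-number counts. The submitters' processing notes name TopHat2, Subread, DESeq and mm9, without versions or roles. Samples were grouped by their labels. Genes were filtered with filterByExpr, normalized by TMM and tested with edgeR 4.0.16 (glmQLFit and glmQLFTest, R 4.3.3), as described in the results. The SE is the log2 fold change divided by the square root of F. RPKM was computed from the counts with the longest protein-coding transcript of each gene in GENCODE M21. The fit was tested on simulated data.

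The receptors and lists were chosen with earlier results of these data known. Named genes were all receptors, the ligands and the IL-3 receptor, up to 4 genes per list and comparison with the smallest adjusted p, and the 3 nearest genes per receptor. Some genes that this rule selects are not reported here. Alternatives were DESeq2 1.42.0, other scalings and filters, a rule with the study's 2-fold limit, a replicate block, a fit without DMSO, summed beta chains and each library left out. List counts, list medians and summed beta chains without 1 DMSO library were added after the data had been seen. So was the 2-fold rule on TMM levels and without 1 DMSO library. The bounds for Flt3 cover counting error only, while the SE also includes the spread between libraries.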

Additional observations from a re-analysis of the deposited data

How the results depend on the processing

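The calls for Csf3r and Csf2rb2 with EPZ5676 and MI-2-2 against DMSO, MM-401 and iBET kept their direction and passed in every alternative fit of these genes, but the summed beta chains did not pass against iBET (0.16 with EPZ5676 and 0.28 with MI-2-2). No receptor differed between EPZ5676 and MI-2-2 in any alternative. Under the 2-fold rule, 3 receptors were past it with EPZ5676, 3 with MI-2-2, 3 for MI-2-2 against MM-401 and 2 for iBET against MM-401. On TMM-scaled levels these were 4, 4, 3 and 2 (25.3%, 26.6%, 23.3% and 12.6% of genes). Against DMSO the TMM-scaled counts for EPZ5676, MI-2-2, iBET and MM-401 were 5, 7, 3 and 3 without DMSO replicate 1 (33.1%, 35.2%, 18.3% and 12.0% of genes). Without replicate 2 they were 4, 3, 2 and 1 (22.4%, 22.6%, 16.7% and 8.33%), both chosen after seeing the data. DESeq2 called 4 for iBET against DMSO (21.3% of all genes), 5 for EPZ5676 against MM-401 (36.4%) and 2 for iBET against MM-401 (17.7%). Without the DMSO libraries in the fit, 7 were called for EPZ5676 against MM-401 (48.8%), 6 for MI-2-2 against MM-401 (51.3%) and 3 for iBET against MM-401 (25.2%). Against iBET, 6 were called for EPZ5676 (51.3%) and 6 for MI-2-2 (52.1%). In that edgeR fit Kit passed for EPZ5676 against MM-401 (0.99, adjusted p = 0.00358) and MI-2-2 against iBET (0.96, adjusted p = 0.00385). Flt3 passed for iBET against MM-401 (3.44, adjusted p = 0.00645). With a mean of at least 5 CPM, 5 were called for EPZ5676 against MM-401 (36.7%). Total-count scaling moved the median log2 fold change of all genes with EPZ5676 from −0.06 to −0.23, called 1930 genes as higher and 3631 as lower in place of 2430 and 2512, and turned Csf2rb against iBET to −0.11 with EPZ5676 and −0.036 with MI-2-2. The causes of these shifts were not tested.

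With 1 library left out, the count of receptors called was 3 to 6 for EPZ5676, 4 to 6 for MI-2-2, 0 to 3 for iBET and 0 to 2 for MM-401 against DMSO. It was 0 to 0 for EPZ5676 against MI-2-2, 2 to 7 for EPZ5676 and 2 to 6 for MI-2-2 against MM-401, 2 to 6 for each of them against iBET, and 0 to 3 for iBET against MM-401. The share of all genes called moved as well, from 19.7% to 51.0%, 20.7% to 53.9%, 1.12% to 27.9% and 0% to 10.2% for EPZ5676, MI-2-2, iBET and MM-401 against DMSO, and from 0% to 50.8% over the other comparisons. Log2 fold changes that changed sign were those of Kit against DMSO (EPZ5676 −0.52 to 1.47, MI-2-2 −1.12 to 0.88, MM-401 −1.53 to 0.42), Csf1r against DMSO (iBET −0.56 to 0.86, MM-401 −0.048 to 1.05), Flt3 with MM-401 (−2.43 to 2.53), Csf2rb and Csf1r for EPZ5676 against MI-2-2 (−0.28 to 0.13 and −0.42 to 0.47), Csf2rb against iBET (EPZ5676 −0.20 to 0.29, MI-2-2 −0.14 to 0.35) and, for iBET against MM-401, Csf1r (−0.96 to 0.29) and Csf2ra (−0.073 to 0.22).

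The replicate numbers shared by the conditions mark no stated batch. Differences between replicates 1 and 2 correlated across genes in all 10 pairs of conditions (r from 0.278 to 0.666), but 2 numbers are too few to call the samples paired. A replicate block called 5 receptors for EPZ5676 against MM-401 (43.4% of all genes) and 2 for iBET against MM-401 (19.0%), Flt3 for MI-2-2 against DMSO (adjusted p = 0.0422), gave Csf1r 0.0398 for EPZ5676 against MI-2-2, and raised the number of genes called with EPZ5676 against DMSO from 4942 to 6180. Depth limits Flt3 and Epor, whose reads per library did not exceed 84 and 9.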
